A study of Mus musculus with 21 samples.

Results

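Sorted retinal cells carrying an ATF3 knockout were compared directly with sorted retinal cells carrying a CHOP knockout, across all measured genes. By their markers the libraries held RNA of other retinal cells besides ganglion cells, as given below. The comparison holds 10 of the 21 libraries of the series, 5 titled as ATF3 knockouts (replicates 5 to 9) and 5 titled as CHOP knockouts (replicates 1 to 5). They were chosen because all 10 belong to batch 3 of the submitters' sample sheet, and no control library entered. Both groups were female C57BL/6 mice aged 6 to 7 weeks, studied 3 days after the optic nerve was crushed, so the injury, its timing, the strain and the sex are shared and only the targeted gene differs by the labels. The knockouts were made with guide RNAs. Where the Cas9 came from, how many guides were used and how the sort was gated are not stated in the labels. Each library was made from RNA of 5000 to 10000 sorted cells. The labels do not say whether libraries come from separate animals, so every p-value reflects only how these libraries vary, and that variation may be technical.

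ATF3 and CHOP (the protein of the gene Ddit3) are stress-induced transcription factors of the basic leucine zipper class. ATF3 pairs with itself or with Jun proteins and binds cyclic AMP response elements and AP-1 sites, while CHOP pairs with C/EBP and ATF proteins and is known for its part in cell death during endoplasmic reticulum stress. Crushing the optic nerve cuts the axons of retinal ganglion cells, most of which die in the weeks that follow, and both factors are induced in the injured neurons. Loss of the one is set here against loss of the other, so a value higher in one group may mean more RNA there or less RNA in the other.

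The ATF3 libraries held 25267560 to 32776378 counted reads each and the CHOP libraries 14272784 to 31543917. The ATF3 libraries were much alike and the CHOP libraries varied more. The biological coefficient of variation, the spread between libraries beyond counting noise, was 0.225 for ATF3 and 0.351 for CHOP. The first principal component, with 23.7% of the variance, put all 5 ATF3 libraries on one side and all 5 CHOP libraries on the other, and the next 3 (15.2%, 15.1% and 12.9%) spread the CHOP libraries. CHOP replicate 1, the library with the fewest reads, lay nearest to the ATF3 libraries on the first component.

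The share of reads from other retinal cells moved with the groups, and this touches much of what follows. Summed over 17 rod photoreceptor genes, it was 0.478%, 0.452%, 0.477%, 0.463% and 0.479% of counted reads in ATF3 replicates 5 to 9. In CHOP replicates 1 to 5 it was 0.566%, 0.860%, 0.954%, 0.961% and 0.767%. Every CHOP library was above every ATF3 library. Because the groups did not overlap, rod share and knockout are hard to tell apart in a fit with the rod share as a covariate, and that fit called 61 genes higher in the ATF3 and 32 higher in the CHOP knockouts. Of all 1232 calls of the main test given below, it kept 75, and 47 had the opposite sign in it. Of 132 genes that the naming rule chose and the test called, 111 did not pass in that fit, and among these the log2 difference was at least as large in 48, smaller with the same sign in 61 and of opposite sign in 2. The median ratio of the 2 differences, with the covariate over without it, was 0.959 in the 111. In bulk RNA of sorted cells, fewer cells of a type and less RNA per cell cannot be told apart.

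The edgeR quasi-likelihood test called 1232 of 15487 tested genes (7.96%) at a Benjamini-Hochberg adjusted p below 0.05. Of these, 620 (4.0%) were higher in the ATF3 and 612 (3.95%) in the CHOP knockouts. The counts of called list members given below are to be read against these shares. The 2 directions were alike in number but not in size. At a fold of 2 or more, 188 called genes were higher in the ATF3 and 67 in the CHOP knockouts, and at a fold of 4 or more 60 against 6. The ATF3 libraries also detected more genes. With counts thinned to the smallest library, 16235 to 16362 genes had a read in the ATF3 and 15709 to 16193 in the CHOP libraries. The part of detection in the larger folds was not tested. The libraries of the groups did not overlap for 1321 genes (8.53%), with the ATF3 libraries higher in 4.62% and the CHOP libraries in 3.91% of tested genes. Of the 1321, 969 were called. Without a single library, 474 to 784 genes were higher in the ATF3 knockouts. The number higher in the CHOP knockouts fell to 407, 395, 392 and 367 without ATF3 replicates 5, 6, 7 and 9.

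**Figure D1:**
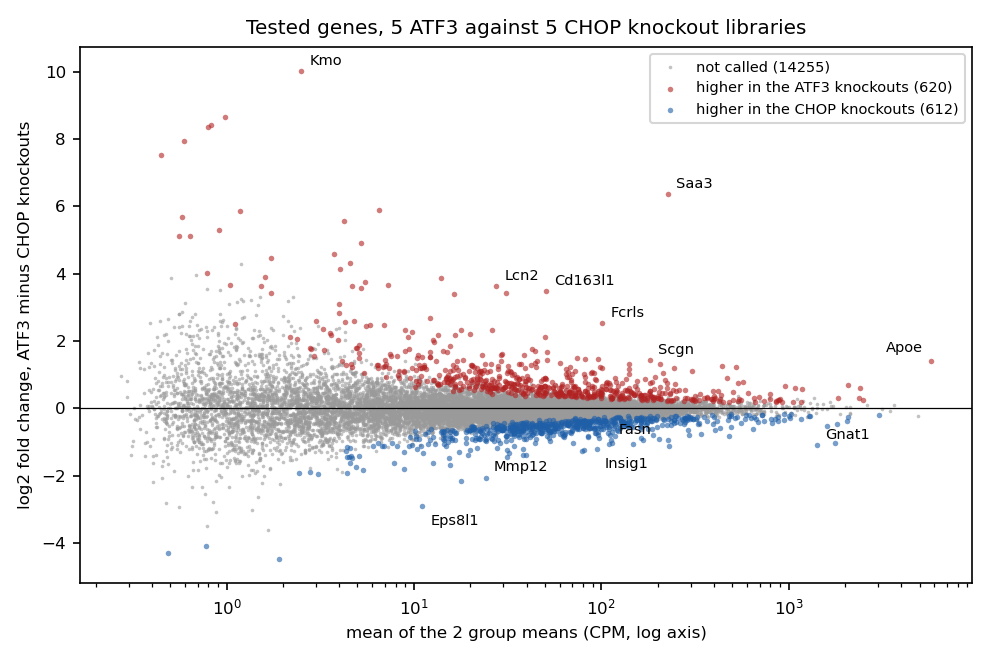
Log2 fold change (ATF3 minus CHOP knockouts) of each tested gene against the mean of the 2 group means in CPM (read counts scaled to library size) on a log axis; red and blue points are the 620 and 612 called genes. Large differences lie mostly above 0, with Saa3 at 6.37, while Eps8l1 at -2.90 and Mmp12 at -2.06 lie below. Red points at the upper left include genes with no read in any CHOP library, such as Kmo, whose plotted value depends on the model and is no measure of size.

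The targeted genes were read first. On mm10, Atf3 lies on the minus strand of chromosome 1 (191170296 to 191218039). It was at 30.5, 38.4, 40.5, 47.9 and 34.0 CPM in the ATF3 libraries and at 33.5, 49.1, 55.1, 22.5 and 24.4 CPM in the CHOP libraries. The groups overlapped fully, and the difference did not pass (log2 fold change 0.05, SE 0.22, adjusted p = 0.935). Ddit3, on the plus strand of chromosome 10 (127290774 to 127296288), averaged 61.8 ± 3.24 CPM (SD, n = 5) in the ATF3 libraries and 65.5 ± 6.16 CPM in the CHOP libraries (log2 fold change -0.09, SE 0.09, adjusted p = 0.673). Its exons overlap those of Mars and Gm4189 on the other strand, and whether counting used the strand is not given, so its reads may include theirs. RNA of the 2 targeted genes thus did not separate the labels. In the 4 control libraries, which are male and of batch 2, Atf3 was at 113 ± 9.30 CPM and Ddit3 at 88.2 ± 14.7 CPM.

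Saa3, an acute phase gene, had the largest difference among called genes with reads in both groups, and was higher in the ATF3 knockouts. Of 13 tested genes of the acute phase and gliosis list, 7 were higher in the ATF3 knockouts (Saa3, Lcn2, Serping1, Gfap, Cp, Steap4 and Osmr), Serpina3n was higher in the CHOP knockouts, and 5 did not pass. The list's median log2 fold change was 1.43, against -0.01 over all tested genes. Saa3 (chromosome 7, 46711998 to 46715700, minus strand), which encodes a serum amyloid A protein secreted during inflammation, was at 493, 487, 417, 418 and 429 CPM in the ATF3 libraries. In the CHOP libraries it was at 2.38, 10.6, 5.82, 4.79 and 2.25 CPM. The lowest ATF3 library thus exceeded the highest CHOP library by far, and the fitted difference was 6.37 (SE 0.31, adjusted p = 1.2e-08).

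Lcn2 (chromosome 2, 32384633 to 32388252, minus strand), the iron-siderophore carrier lipocalin 2, was at 44.0, 56.6, 34.4, 49.98 and 69.0 CPM in the ATF3 libraries. It was at 2.87, 5.52, 4.34, 4.69 and 2.79 CPM in the CHOP libraries, with no overlap (log2 fold change 3.64, SE 0.23, adjusted p = 3.56e-07). Serping1, the inhibitor of complement C1, was at 75.3 ± 7.15 CPM in the ATF3 and 28.0 ± 7.10 CPM in the CHOP knockouts (1.43, SE 0.16, adjusted p = 4.57e-05). Steap4, a metalloreductase, was 3.88 higher in the ATF3 knockouts (SE 0.77, adjusted p = 0.00539). Saa3, Lcn2 and Serping1 passed in every alternative run, the rod covariate and each left-out library included, while Steap4 did not pass with the rod covariate (2.75, adjusted p = 0.557). Serpina3n, an acute phase serine protease inhibitor, was at 44.7 ± 5.76 CPM in the ATF3 and 61.7 ± 6.15 CPM in the CHOP knockouts. Its call was lost without ATF3 replicate 6, 7 or 8 (adjusted p = 0.0563, 0.0698 and 0.0518).

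The Saa3 level of the ATF3 knockouts was the highest of 4 groups set side by side, the ATF3, CHOP and CEBPG knockouts and the controls. On the scale of all 20 grouped libraries it was at 34.99 ± 9.36 CPM in 4 CEBPG knockouts of the same batch and 61.4 ± 29.3 CPM in the 4 controls, between the ATF3 and the CHOP level. Lcn2 was at 8.03 ± 2.30 CPM and 11.98 ± 7.11 CPM in the same groups. The controls differ from the knockouts in sex and batch, so these are values side by side and not a comparison. The 20 libraries also include ATF4 knockouts of batch 1, replicate 1 (female) and replicate 3 (male), whose levels are not given.

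The promoter of Saa3 is shown because the gene had the largest difference among called genes with reads in both groups. The stretch is from RefSeq's promoter table (GRCm38.p6, chr7:46715723-46715820, minus strand), read 5′ to 3′, and the capitals mark letters that match the C/EBP pattern TTGCNNAA on the other strand, 99 to 92 bases before the start site.
Saa3: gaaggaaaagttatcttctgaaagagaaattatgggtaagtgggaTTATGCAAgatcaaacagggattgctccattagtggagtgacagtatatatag
Of 6 called acute phase genes higher in the ATF3 knockouts that have a promoter in the table, 4 (Saa3, Lcn2, Cp and Steap4) hold this pattern in the 250 bases before the start on either strand. Among all 11549 tested genes with a promoter it is 8.95%. The pattern was chosen after the gene values were seen, and a match is a description of letters and no evidence of binding. For the sites of the factors themselves, the cyclic AMP response element TGACGTCA was in 2.93% of all tested promoters, 3.23% of those higher in the ATF3 and 2.63% of those higher in the CHOP knockouts. The AP-1 letters TGAGTCA were in 3.93%, 5.16% and 3.73%, and the C/EBP-ATF letters TGATGCAA in 0.701%, 0.430% and 0.439%.

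Genes of cholesterol and fatty acid synthesis were higher in the CHOP knockouts. Of 33 tested genes of the list, 17 were called in that direction and 0 in the other, and the list's median log2 fold change was -0.48. Among them were Insig1, Srebf2, Fasn, Sqle, Hmgcs1, Fdps, Msmo1, Elovl6, Fdft1, Cyp51, Idi1, Nsdhl, Mvd and Tm7sf2, with differences from -1.21 (Insig1) to -0.47 (Mvd). They run from Hmgcs1, an early enzyme of the mevalonate pathway, through Sqle, which oxidises squalene, to late enzymes such as Nsdhl. The 16 members that did not pass included Srebf1, and their values ran from -0.63 to 0.19. Without any single library 15 to 17 members passed, and 6 passed with the rod covariate.

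Insig1 (chromosome 5, 28071363 to 28078662, plus strand), which holds the sterol sensor SCAP in the endoplasmic reticulum, was at 57.4, 52.9, 54.5, 63.7 and 56.0 CPM in the ATF3 libraries. It was at 130.1, 127, 125, 145 and 133 CPM in the CHOP libraries, above every ATF3 library (log2 fold change -1.21, SE 0.08, adjusted p = 5.21e-07). Srebf2, the transcription factor that activates the pathway when sterols are low, was at 138, 131, 145, 130.1 and 149 CPM against 243, 249.7, 226, 246 and 235 CPM (-0.79, SE 0.07, adjusted p = 2.84e-06). The 2 groups were again apart in every library. Fasn, the fatty acid synthase, was at 80.6, 79.0, 76.0, 74.8 and 72.1 CPM against 141, 131, 155, 163 and 150.4 CPM (-0.95, SE 0.08, adjusted p = 3.05e-06). All 3 genes passed in every alternative run.

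Outside the CHOP knockouts, Insig1 and Fasn lay near the ATF3 level. Insig1 was at 57.6 ± 13.7 CPM in the CEBPG knockouts and 58.8 ± 14.6 CPM in the controls, and Fasn at 62.3 ± 7.17 CPM and 65.5 ± 14.1 CPM. Srebf2 was at 136 ± 10.9 CPM in the CEBPG knockouts and 106 ± 15.2 CPM in the controls. The summed level of the whole list was 0.349% to 0.411% of reads in the CHOP libraries, 0.267% to 0.286% in the ATF3, 0.221% to 0.250% in the CEBPG and 0.260% to 0.321% in the control libraries, so each CHOP library was above all libraries of the other 3 groups.

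**Figure D2:**
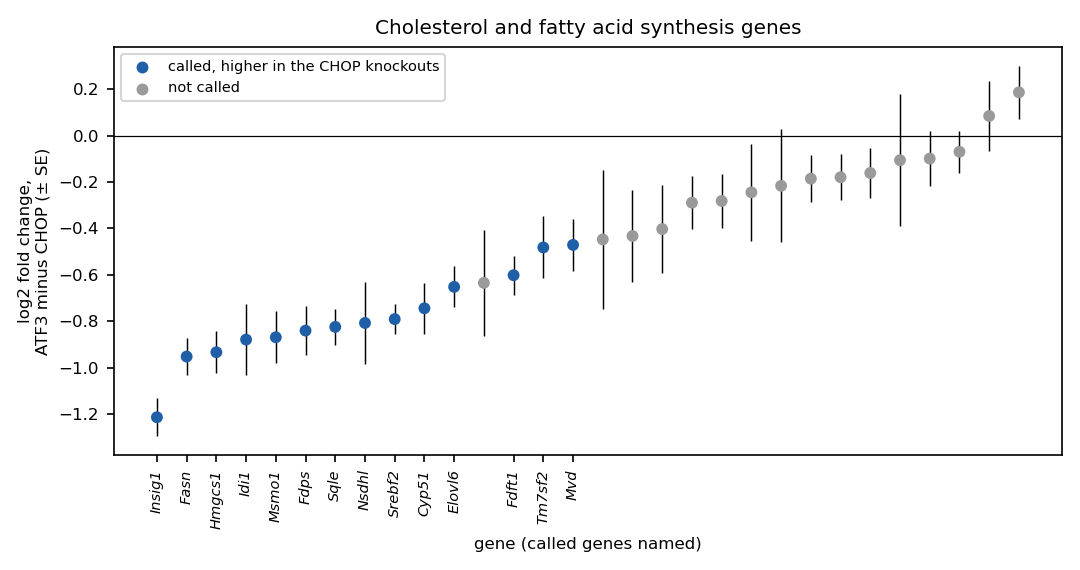
Log2 fold change (ATF3 minus CHOP knockouts) with its standard error for 30 of the 33 tested genes of cholesterol and fatty acid synthesis, in order of size; blue points are 14 called genes, which are named on the axis, and grey points are genes not called. The blue points lie between -1.21 for Insig1 and -0.47 for Mvd, and all but 2 of the points lie below 0.

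Promoter stretches of 3 of these genes are shown because they hold the letters of a pattern named below. They come from the same table and are read 5′ to 3′ (Insig1 at chr5:28071162-28071245, plus strand, Fasn at chr11:120824560-120824654, minus strand, and Hmgcs1 at chr13:119690169-119690267, plus strand). Capitals mark a CCAAT box on either strand in Insig1 and Fasn, and in Hmgcs1 the sterol response pattern TCACNCCAC. Other CCAAT matches in the stretches of Fasn and Hmgcs1 are left in small letters. Stretches with a CCAAT box were sought for Insig1, Fasn and Srebf2 alone, and stretches with an annotated exon were left out.
Insig1: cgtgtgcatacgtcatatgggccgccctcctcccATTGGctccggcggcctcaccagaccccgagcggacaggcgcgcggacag
Fasn: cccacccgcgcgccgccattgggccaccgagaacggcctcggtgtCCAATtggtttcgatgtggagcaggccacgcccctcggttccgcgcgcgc
Hmgcs1: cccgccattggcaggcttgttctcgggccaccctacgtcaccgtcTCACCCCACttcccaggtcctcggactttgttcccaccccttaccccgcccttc
The CCAAT letters were in 10 of the 11 called genes of the list that have a promoter in the table and in 39.7% of all tested promoters. The 23 tested list members with a promoter held them in 19 cases, called or not. The sterol response letters were in 1 of the 11, Hmgcs1, and in 1.22% of all tested promoters. They were also in 2 of the 6 acute phase promoters counted above (Saa3 and Gfap), in 2.58% of promoters of genes higher in the ATF3 and in 1.54% of those higher in the CHOP knockouts. Both patterns were chosen after the gene values were seen.

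Markers of bipolar cells, the interneurons that carry signals from photoreceptors to ganglion cells, were higher in the ATF3 knockouts. Of 13 tested markers, 12 passed in that direction and Prkca, the marker of rod bipolar cells, passed in the other. The list's median was 1.31, and its summed level was 0.143% to 0.169% of reads in the ATF3 and 0.0546% to 0.0797% in the CHOP libraries. Scgn, the calcium-binding protein secretagogin of cone bipolar cells, was at 240.3, 283, 253, 260.1 and 285 CPM in the ATF3 libraries and 85.5, 104, 110.4, 100.5 and 90.3 CPM in the CHOP libraries (1.43, SE 0.08, adjusted p = 9.78e-08). No library of one group came near the other. Gng13, a G protein subunit of ON bipolar cells, was at 68.2 ± 4.82 against 20.9 ± 3.62 CPM (1.70, SE 0.13, adjusted p = 1.12e-06), and Lrtm1 at 121 ± 10.5 against 44.0 ± 5.64 CPM (1.45, SE 0.11, adjusted p = 9.42e-07). Exons of Gng13 overlap the antisense gene Chtf18.

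All 12 markers passed with any library left out, and 9 of them, these 3 included, passed with the rod covariate. Prkca was at 47.3 ± 2.53 CPM in the ATF3 and 70.8 ± 13.3 CPM in the CHOP knockouts (-0.58, SE 0.12, adjusted p = 0.00763). With the rod covariate its sign turned (0.08, adjusted p = 0.924). Controls held 0.129% to 0.187% of reads in bipolar markers and CEBPG knockouts 0.0424% to 0.0833%. Isl1, listed with ganglion cell identity and also expressed in ON bipolar cells, was at 65.8 ± 9.09 against 24.8 ± 7.15 CPM (1.40, SE 0.18, adjusted p = 0.000151). The part of bipolar cell RNA in the Isl1 difference was not tested, and with the rod covariate the difference was 1.78 and did not pass (adjusted p = 0.118).

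Rod and amacrine genes went the other way, while cone genes were called in both directions. Of 17 rod genes 15 were higher in the CHOP knockouts and 0 in the ATF3 knockouts, with a list median of -0.87. Gnat1, the rod transducin, was at 925, 877, 876, 848 and 968 CPM in the ATF3 and 1310.1, 2047, 2063, 2249 and 1939 CPM in the CHOP libraries (-1.10, SE 0.11, adjusted p = 1.5e-05). CHOP replicate 1 was the lowest of its group and still above every ATF3 library. The controls held far more, 11725 ± 2574 CPM of Gnat1 and 4.001% to 6.04% of reads in rod markers. Among 9 cone genes, Arr3, the cone arrestin, was higher in the CHOP knockouts (140.4 ± 16.7 against 217 ± 17.2 CPM, -0.62, SE 0.09, adjusted p = 0.000315), while Gngt2 (0.79) and Pde6h (0.45) were higher in the ATF3 knockouts. Arr3 passed in every alternative run, and without ATF3 replicate 8 a further cone gene was higher in the CHOP knockouts.

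Of 13 amacrine cell markers 5 were higher in the CHOP knockouts (among them Slc6a9, C1ql2, Slc32a1 and Tfap2b) and 0 in the ATF3 knockouts, with a median of -0.31. Slc6a9, the glycine transporter of glycinergic amacrine cells, was at 1517 ± 46.1 against 2096 ± 239 CPM (-0.47, SE 0.07, adjusted p = 0.000394). It has exons antisense to other genes. None of the 5 passed in the fit of all 20 libraries, and 2 passed with the rod covariate. Müller glia markers gave 2 calls of 12 (16.7%, against 7.96% of all tested genes). Both were higher in the ATF3 knockouts and kept in every alternative run. Clu, the secreted chaperone clusterin, was at 1175 ± 63.8 against 749 ± 23.2 CPM (0.65, SE 0.05, adjusted p = 1.12e-06), and Crym, mu-crystallin, at 138 ± 9.85 against 59.2 ± 9.34 CPM (1.22, SE 0.11, adjusted p = 6.76e-06). None of 4 horizontal cell and 5 pigment epithelium markers passed, the most abundant being Prox1 (0.31, adjusted p = 0.149) and Dct (-0.82, adjusted p = 0.323). A call among horizontal cell markers appeared without ATF3 replicate 5.

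**Figure D3:**
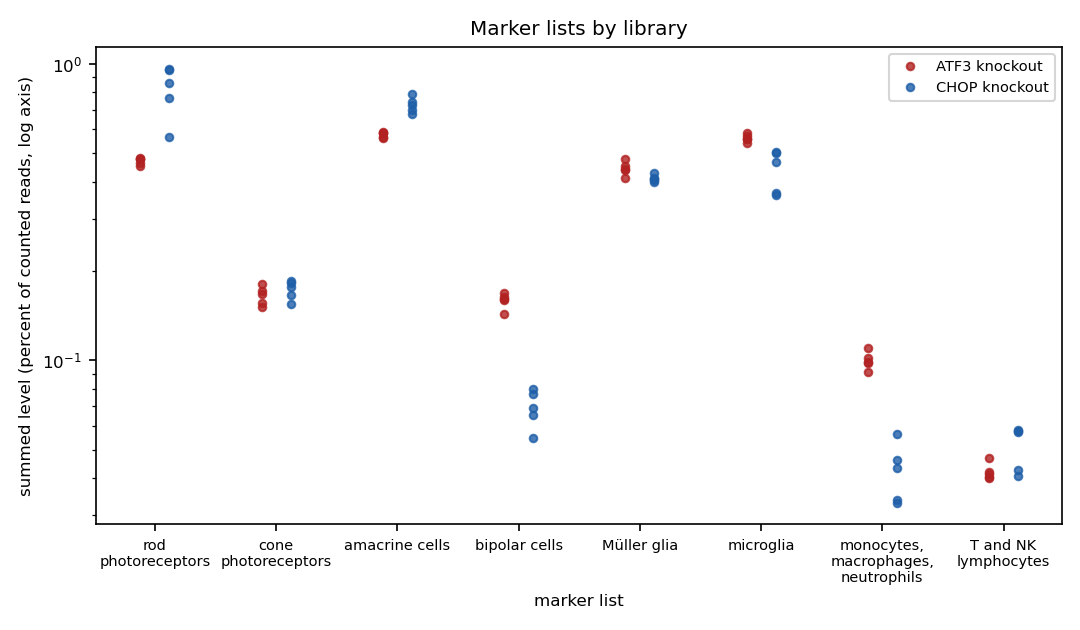
Summed level of 8 cell-type marker lists in each library, in percent of counted reads on a log axis; red points are the 5 ATF3 and blue points the 5 CHOP knockout libraries. Rod and amacrine markers are higher and bipolar, microglia and monocyte markers lower in every CHOP library than in every ATF3 library, while the cone, Müller glia and lymphocyte lists overlap.

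Myeloid genes were higher in the ATF3 knockouts. Of 15 microglia markers 6 were called in that direction (Fcrls, Laptm5, Tyrobp, Cx3cr1, Olfml3 and Csf1r) and 0 in the other, with a median of 0.35, and without CHOP replicate 3 the count was 10. Fcrls (chromosome 3, 87250758 to 87263738, minus strand), an Fc receptor-like protein of microglia, was at 180.2, 176, 175, 149 and 179 CPM in the ATF3 and 30.6, 24.3, 31.9, 31.3 and 30.6 CPM in the CHOP libraries (2.53, SE 0.10, adjusted p = 6.92e-10). It had the smallest adjusted p of the named genes and passed in every alternative run. The other 5 called markers differed by much less, Laptm5 by 0.52 and Tyrobp by 0.77. Microglia markers that did not pass included P2ry12 and Tmem119, and the list as a whole took 0.541% to 0.585% of reads in the ATF3 and 0.359% to 0.505% in the CHOP libraries. Fcrls was at 69.2 ± 12.01 CPM in the CEBPG knockouts and 11.6 ± 2.17 CPM in the controls.

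Among 14 monocyte, macrophage and neutrophil markers 8 were higher in the ATF3 and 0 in the CHOP knockouts, with a median of 1.49. Without ATF3 replicate 8 the count was 5. Lyz2, lysozyme, was at 733 ± 71.8 against 314 ± 76.0 CPM (1.22, SE 0.13, adjusted p = 3.11e-05), and Fn1, fibronectin, at 56.6 ± 7.01 against 5.20 ± 3.62 CPM (3.42, SE 0.44, adjusted p = 0.000163). Ccr2, the chemokine receptor of inflammatory monocytes, was at 49.7, 66.3, 75.4, 74.2 and 61.9 CPM in the ATF3 and 36.4, 21.6, 9.32, 12.98 and 17.8 CPM in the CHOP libraries (1.75, SE 0.27, adjusted p = 0.000921). CHOP replicate 1 came closest to the ATF3 libraries. None of these 3 passed with the rod covariate. There the difference of Lyz2 was 1.17 (adjusted p = 0.121), that of Fn1 was 2.33 (adjusted p = 0.474) and that of Ccr2 was 0.25 (adjusted p = 0.866), so the first stayed near its size and the last was mostly gone.

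Genes of disease-associated microglia split. Apoe, the lipid carrier, was at 9418, 8504, 8526, 7324 and 8333 CPM in the ATF3 and 3308, 3804, 3656, 2634 and 2401 CPM in the CHOP libraries (1.41, SE 0.11, adjusted p = 1.48e-06). The groups were far apart, and Apoe, together with Cd63, a lysosomal tetraspanin (0.52, SE 0.07, adjusted p = 0.00036), passed in every alternative run. Ctsd, Ctsb and Spp1 were also higher in the ATF3 knockouts, which gives 5 of 17. Lpl, Ccl3 and Ccl4 were higher in the CHOP knockouts, and without ATF3 replicate 9 the adjusted p of Ccl3 was 0.0507. Of 18 complement genes 6 were higher in the ATF3 and 0 in the CHOP knockouts (10 without CHOP replicate 3), led by Serping1, C5ar1 (0.75, SE 0.14, adjusted p = 0.00407) and C1qc (0.47, SE 0.09, adjusted p = 0.00607). Of 19 antigen presentation genes 4 were higher in the ATF3 knockouts (2 without ATF3 replicate 6 or 8), among them H2-Ab1 (0.76, SE 0.16, adjusted p = 0.00867).

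Genes of gamma delta and type 17 T cells, lymphocytes that secrete interleukin 17, were higher in the ATF3 knockouts. Of 19 tested genes 7 passed (among them Cd163l1, Il1r1, Il17f, Ccr6, Blk and Il17a) and 0 passed in the other direction, with a median of 0.45. Cd163l1, a scavenger receptor of gamma delta T cells, was at 91.7, 100.6, 99.4, 88.7 and 83.1 CPM in the ATF3 and 13.7, 2.92, 5.06, 15.9 and 4.99 CPM in the CHOP libraries (3.48, SE 0.36, adjusted p = 2.66e-05). Il17f was at 1.23 to 3.10 CPM in the ATF3 libraries and had no read in any CHOP library. Set against 3 reads over the whole CHOP group, the floor used here, that is at least 76.1-fold higher. Il1r1, the receptor of interleukin 1, was at 29.7 ± 7.46 against 5.87 ± 3.24 CPM (2.33, SE 0.32, adjusted p = 0.000315) and was the only one of the 7 to pass with the rod covariate.

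Cd163l1 was not detected in the controls and was at 109.7 ± 18.01 CPM in the CEBPG knockouts. Classical T and natural killer cell genes did not follow it between the ATF3 and CHOP knockouts. Of 21 such markers 0 were higher in the ATF3 and 3 in the CHOP knockouts, namely Nkg7, a granule protein of cytotoxic cells (22.5 ± 2.63 against 39.4 ± 7.37 CPM, -0.81, SE 0.15, adjusted p = 0.00275), Cd2 and Il2rb. Only Nkg7 passed without ATF3 replicates 6, 7, 8 or 9 or CHOP replicates 1, 2 or 3, and 5 markers passed without CHOP replicate 4. Their summed level was 0.0402% to 0.0468% of reads in the ATF3 and 0.0406% to 0.0580% in the CHOP libraries. It was 0.227% to 0.321% in the CEBPG knockouts and 0.00207% to 0.00435% in the controls, so there it was high and low where Cd163l1 was.

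Chemokine genes were called in both directions. Of 27 tested, 8 were higher in the ATF3 knockouts, led by Cxcl13, the B cell chemoattractant, at 53.1 ± 4.07 against 21.3 ± 3.33 CPM (1.32, SE 0.13, adjusted p = 1.77e-05), Ccl6 (1.13, SE 0.16, adjusted p = 0.000438) and Ccr2. The 7 higher in the CHOP knockouts were led by Cxcr3, its ligand Cxcl10 and Ccl4. Cxcr3 was at 11.8, 12.6, 8.27, 12.4 and 9.15 CPM in the ATF3 and 30.2, 30.6, 25.5, 33.1 and 22.1 CPM in the CHOP libraries (-1.38, SE 0.17, adjusted p = 0.000147), without overlap. Cxcl10, which interferon induces, was at 1.83 ± 0.580 against 6.98 ± 2.94 CPM (-1.93, SE 0.39, adjusted p = 0.00588). The first count was 5 without ATF3 replicate 6, 7, 8 or 9 or CHOP replicate 1 or 5, and the second fell to 3 without ATF3 replicate 9 and to 4 without ATF3 replicate 6, 7 or 8 or CHOP replicate 1 or 3. Cxcl13 passed in every alternative run. Of 32 interferon response genes 2 were higher in the ATF3 (Ifi27l2a and Ifit3) and 1 in the CHOP knockouts (Cxcl10). The first count was 1 without ATF3 replicate 6 or 8 and 4 without CHOP replicate 3, and the second was 2 without CHOP replicate 2, 4 or 5. Of the 32 genes 9.38% were called, near the 7.96% of all tested genes.

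Kmo (chromosome 1, 175620381 to 175662116, plus strand), the kynurenine monooxygenase of tryptophan breakdown, was the most abundant tested gene with no read in any CHOP library. It was at 4.37, 8.53, 2.56, 3.99 and 5.63 CPM in the ATF3 libraries, at least 194-fold above the floor of 3 reads over the CHOP group. It was at 6.66 ± 1.70 CPM in the CEBPG knockouts and 0.563 ± 1.13 CPM in the controls. The genes Calcr, Wdr93 and Trem1 were also without a read in the CHOP libraries, at 0.895 to 1.66 CPM in the ATF3 knockouts. Among other large differences, Fpr1, the formyl peptide receptor of neutrophils and monocytes, was 4.90 higher (SE 0.77, adjusted p = 0.000923), and Prph, the intermediate filament peripherin, was 3.58 higher (SE 0.67, adjusted p = 0.00345).

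Among called genes at a mean of at least 5 CPM whose groups did not overlap, the largest differences in the other direction were smaller. Eps8l1, an actin regulator related to EPS8, was at 3.79, 1.33, 4.64, 1.60 and 1.72 CPM in the ATF3 and 15.95, 20.1, 20.7, 18.5 and 22.6 CPM in the CHOP libraries (-2.90, SE 0.33, adjusted p = 5.67e-05). Its exons overlap the antisense gene Gm15494. Mmp12, the macrophage metalloelastase, was at 15.0, 6.63, 9.56, 3.48 and 12.1 CPM against 47.0, 45.7, 30.7, 42.7 and 28.8 CPM (-2.06, SE 0.30, adjusted p = 0.000559). In both genes the groups were apart in every library, as the rule that named them required. Exons of Mmp12 overlap the antisense gene Mmp1b. Mmp12 was at 42.2 ± 23.6 CPM in the CEBPG knockouts and 51.2 ± 19.3 CPM in the controls, and Eps8l1 at 11.7 ± 4.48 and 13.7 ± 1.80 CPM, so for both the ATF3 level was the lowest of the 4 groups. Dusp2, a phosphatase of MAP kinases, was at 16.9 ± 1.91 against 45.6 ± 17.3 CPM (-1.43, SE 0.23, adjusted p = 0.000973). Emd and Evc differed by -1.48 and -1.68. None of these 5 passed with the rod covariate, although the differences kept their direction. They were -2.50 for Eps8l1 (adjusted p = 0.0922), -2.17 for Mmp12 (adjusted p = 0.125), -0.95 for Dusp2 (adjusted p = 0.446), -1.16 for Emd (adjusted p = 0.454) and -2.45 for Evc (adjusted p = 0.0851).

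**Figure D4:**
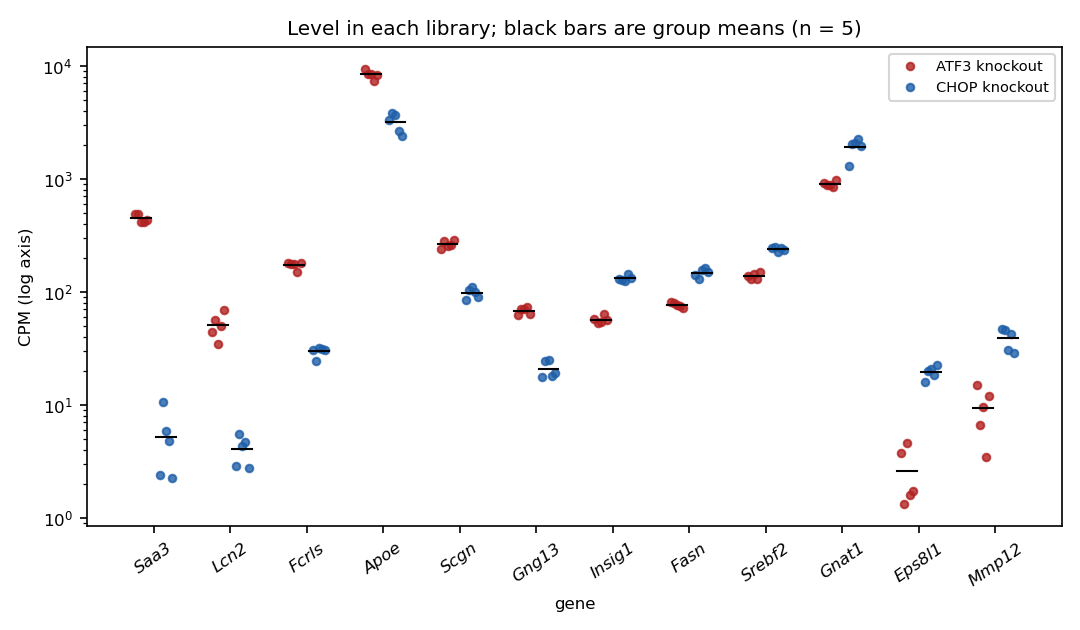
Level of 12 genes in each library in CPM on a log axis; red points are the 5 ATF3 and blue points the 5 CHOP knockout libraries, and black bars are group means. Saa3 differs most, with ATF3 libraries at 417 to 493 and CHOP libraries at 2.25 to 10.6 CPM, and no gene shown overlaps between the groups. Genes such as Eps8l1 and Mmp12 were named by a rule that admits no overlap.

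Some genes of neuronal activity and excitability were higher in the CHOP knockouts, 4 of 17 immediate early genes and 11 of 30 ion channel genes. Of all tested genes 3.95% were called in that direction. The 4 were Npas4, Egr4, Egr1 and Nr4a1, and 0 of the 17 passed in the other direction, with a median of -0.20. Npas4, a transcription factor induced by calcium entry, was at 2.87, 2.00, 2.24, 1.92 and 2.77 CPM in the ATF3 and 4.62, 8.0, 9.74, 11.4 and 8.28 CPM in the CHOP libraries (-1.83, SE 0.30, adjusted p = 0.00145). Egr4 was at 16.8 ± 2.99 against 31.6 ± 4.05 CPM (-0.91, SE 0.16, adjusted p = 0.00197), and Egr1 differed by -0.34 (SE 0.06, adjusted p = 0.00242). Fos was not called (-0.18, SE 0.16, adjusted p = 0.583), with CHOP replicates 2 and 3 above every ATF3 library and the other 3 below. The summed level of the list was 0.313% to 0.339% in the ATF3 and 0.314% to 0.509% in the CHOP libraries, which overlap.

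Of the 30 voltage-gated ion channel genes 11 were higher in the CHOP and 0 in the ATF3 knockouts, with a median of -0.35. Scn1a, a sodium channel, was at 63.5 ± 6.31 against 95.6 ± 5.98 CPM (-0.59, SE 0.09, adjusted p = 0.00088). With the rod covariate 2 of the 11 passed. A channel gene higher in the ATF3 knockouts was called without CHOP replicate 3.

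Synaptic genes leaned the same way. Of 29 glutamate, GABA and glycine receptor genes 6 were higher in the CHOP knockouts, led by Gria2 (-0.29, SE 0.05, adjusted p = 0.0018) and Grin1 (-0.40, SE 0.07, adjusted p = 0.00277), and 3 without ATF3 replicate 5 or 9. In the other direction 2 receptor genes passed, and 1 without ATF3 replicate 7, 8 or 9. Of 30 vesicle release genes 8 were higher in the CHOP knockouts, led by Unc13a, a priming factor (-0.72, SE 0.11, adjusted p = 0.000919) and Cplx2 (-0.58, SE 0.12, adjusted p = 0.00669), and Syp was higher in the ATF3 knockouts (0.19, SE 0.05, adjusted p = 0.0217). The count of 8 was 3 to 5 without any single ATF3 library or without CHOP replicate 3, 4 or 5. For Syp's direction 2 genes passed without CHOP replicate 3 or 5. With the rod covariate 1 receptor gene was higher in the CHOP and 0 in the ATF3 knockouts, and 0 vesicle release genes passed.

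Ganglion cell genes were called in both directions, with a list median of -0.29 and 12 of 17 values below 0. Of 17 pan-ganglion-cell genes Slc17a6, the vesicular glutamate transporter, was at 20.2 ± 2.81 against 33.3 ± 4.57 CPM (-0.72, SE 0.14, adjusted p = 0.0053), and the transcription factor genes Ebf3 (-0.90, SE 0.20, adjusted p = 0.00966) and Ebf1 (-0.53, SE 0.14, adjusted p = 0.0256) were also higher in the CHOP knockouts. Ebf1 did not pass without ATF3 replicate 6, 8 or 9 or CHOP replicate 2 or 5 (adjusted p = 0.0698, 0.0564, 0.0908, 0.0572 and 0.0638). Isl1 and Nefl, the light neurofilament (0.30, SE 0.07, adjusted p = 0.0105), were higher in the ATF3 knockouts. Rbpms, Sncg, Thy1 and Pou4f1, the usual markers of the class, did not pass. The list took 0.0887% to 0.0931% of reads in the ATF3, 0.0804% to 0.0944% in the CHOP and 0.0664% to 0.0933% in the control libraries. The 17 are those of 19 list members that passed the filter on low counts. RNA of amacrine cells, rods and glia was also in these libraries, as given above. The amacrine marker list took 0.564% to 0.589% of reads in the ATF3 and 0.677% to 0.792% in the CHOP libraries.

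Among 23 genes of ganglion cell subtypes 4 were higher in the ATF3 knockouts. Kcng4, a potassium channel subunit that marks alpha ganglion cells and also some bipolar cells, was at 87.1, 70.9, 62.8, 85.3 and 82.3 CPM in the ATF3 and 21.3, 15.1, 33.1, 16.5 and 36.0 CPM in the CHOP libraries (1.67, SE 0.22, adjusted p = 0.000179). Spp1, osteopontin, which alpha ganglion cells and myeloid cells both express, was at 81.2 ± 40.9 against 18.6 ± 12.7 CPM (2.11, SE 0.41, adjusted p = 0.00462), and Pvalb, parvalbumin, differed by 1.74 (SE 0.38, adjusted p = 0.00905). The fourth was Cartpt (0.46, SE 0.12, adjusted p = 0.0231), lost without ATF3 replicate 5, 7 or 8 or CHOP replicate 1 (adjusted p = 0.0565, 0.053, 0.0509 and 0.0564). Bhlhe22 was higher in the CHOP knockouts and lost its call without ATF3 replicate 5, 7 or 9 or CHOP replicate 1, 4 or 5 (adjusted p = 0.0684, 0.0999, 0.105, 0.0797, 0.0663 and 0.0637). With the rod covariate none of these 5 passed, although 3 differences were larger and the other 2 nearly the same, at 1.67 for Kcng4 (adjusted p = 0.229), 2.08 for Spp1 (adjusted p = 0.542), 3.08 for Pvalb (adjusted p = 0.188), 0.71 for Cartpt (adjusted p = 0.309) and -1.26 for Bhlhe22 (adjusted p = 0.0598).

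Of 28 axon regeneration genes 2 were higher in the ATF3 knockouts. Stat3, the transducer of ciliary neurotrophic factor signals, was at 222, 232, 230.2, 254 and 239 CPM in the ATF3 and 169, 200.3, 154, 166 and 156 CPM in the CHOP libraries (0.48, SE 0.08, adjusted p = 0.0012), and Anxa2, annexin A2, differed by 1.11 (SE 0.20, adjusted p = 0.00303). The 5 higher in the CHOP knockouts were Basp1, a growth cone protein (-0.40, SE 0.07, adjusted p = 0.00156), Igf1r (-0.62, SE 0.13, adjusted p = 0.00738), Cntfr, the receptor of ciliary neurotrophic factor (-0.96, SE 0.23, adjusted p = 0.0185), Tubb2b and Ecel1. Cntfr did not pass without ATF3 replicate 5 (adjusted p = 0.0506). The count of 5 was 3 without ATF3 replicate 5, 6 or 7 or CHOP replicate 2 or 4. Sprr1a, Gap43, Sox11 and Gal did not pass. None of the 7 called genes passed with the rod covariate, where Stat3 differed by 0.46 (adjusted p = 0.311), Basp1 by -0.50 (adjusted p = 0.146), Cntfr by -1.27 (adjusted p = 0.324) and Igf1r by -0.06 (adjusted p = 0.955).

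Stress response genes are the setting in which both factors are best known. Of 38 AP-1, ATF/CREB and C/EBP family genes 0 passed in either direction, with differences from -0.63 to 0.54 (1 was higher in the ATF3 knockouts without CHOP replicate 3). The most abundant of them, Fos, is given above. Atf4 was at 87.8 ± 8.30 CPM in the ATF3 and 106 ± 10.4 CPM in the CHOP libraries (-0.27, SE 0.09, adjusted p = 0.087). Cebpg differed by 0.15 (SE 0.10, adjusted p = 0.404). Of 24 integrated stress response genes 2 passed, near the 7.96% of all tested genes. Gadd45a, a p53 and ATF4 target of growth arrest, was at 74.3, 71.8, 74.5, 79.7 and 84.4 CPM in the ATF3 and 34.6, 46.9, 46.8, 60.2 and 45.05 CPM in the CHOP libraries (0.72, SE 0.12, adjusted p = 0.00197) and passed in every alternative run. Vldlr was higher in the CHOP knockouts, not so without ATF3 replicate 5, 6 or 9 (adjusted p = 0.0654, 0.0602 and 0.0723).

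None of 19 tRNA synthetase genes passed, Nars being the most abundant (-0.05, SE 0.05, adjusted p = 0.665), and their values ran from -0.38 to 0.20. Of 25 amino acid supply genes Slc7a5, the large neutral amino acid transporter, passed (-0.49, SE 0.12, adjusted p = 0.023), and not without ATF3 replicate 6, 7 or 9 or CHOP replicate 1 (adjusted p = 0.0647, 0.0782, 0.0599 and 0.055). Of 25 endoplasmic reticulum chaperone genes Pdia3 (0.25, SE 0.05, adjusted p = 0.00494) and Calr (0.22, SE 0.06, adjusted p = 0.0347) passed, the latter not without ATF3 replicate 5 or 7 or CHOP replicate 2 (adjusted p = 0.0527, 0.0573 and 0.0672). Of the chaperone list 8% was called, near the 7.96% of all tested genes, and of the amino acid supply list 4%, below it. Hspa5, the main chaperone of that compartment, did not pass. Of 16 p53 targets Gadd45a and Ccng1 (0.52, SE 0.11, adjusted p = 0.00764) were higher in the ATF3 knockouts, and Gadd45b in the CHOP knockouts with a call lost without any ATF3 library or without CHOP replicate 3 or 4. That is 18.8% of the p53 list, against 7.96% of all tested genes.

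Among 22 BCL2 family and caspase genes 2 passed in each direction, 18.2% of the list against 7.96% of all tested genes. Hrk, a neuronal activator of cell death, was at 5.25, 3.52, 4.41, 6.17 and 6.37 CPM in the ATF3 and 7.98, 15.5, 8.35, 17.5 and 13.6 CPM in the CHOP libraries (-1.29, SE 0.27, adjusted p = 0.00803). Bcl2l2, a survival factor, was also higher in the CHOP libraries (-0.89, SE 0.22, adjusted p = 0.0229). The survival factor Mcl1 was higher in the ATF3 knockouts (0.34, SE 0.10, adjusted p = 0.0409). Hrk passed with any library left out, but with the rod covariate it differed by -0.49 (adjusted p = 0.822). In that fit 0 genes of the list passed. Bcl2l2 was lost without ATF3 replicate 6 or 9 or CHOP replicate 3 or 4 (adjusted p = 0.0688, 0.0736, 0.0537 and 0.0642), and Mcl1 without ATF3 replicate 7, 8 or 9 or CHOP replicate 1, 4 or 5. The count higher in the ATF3 knockouts was 0 without ATF3 replicate 8. Of 18 axon injury kinase genes Tnik (-0.52, SE 0.11, adjusted p = 0.00903) and Mapk8ip3 were higher in the CHOP knockouts, the latter lost without ATF3 replicate 5, 6, 7 or 9 or CHOP replicate 1 or 5. That is 11.1% of the kinase list, against 7.96% of all tested genes. Of 21 heat shock genes Hsf1, Hsp90aa1 and Hsp90ab1 passed by -0.45 to -0.18, and 0 of the list passed without ATF3 replicate 7, 8 or 9 or CHOP replicate 3, 1 without ATF3 replicate 6 or CHOP replicate 2 or 4.

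Antioxidant genes were higher in the ATF3 knockouts, 7 of 27 against 1. Hmox1, heme oxygenase 1, was at 42.1, 31.0, 42.7, 29.5 and 26.8 CPM in the ATF3 and 11.2, 9.10, 11.1, 13.8 and 12.3 CPM in the CHOP libraries (1.58, SE 0.18, adjusted p = 4.57e-05). Gpx1, glutathione peroxidase 1, was at 198 ± 16.1 against 112 ± 16.1 CPM (0.82, SE 0.10, adjusted p = 6.42e-05) and passed in every alternative run, and Fth1, the ferritin heavy chain, differed by 0.59 (SE 0.08, adjusted p = 0.000235). Tkt was the gene higher in the CHOP knockouts, and not without ATF3 replicate 6, 7, 8 or 9 or CHOP replicate 4. Hmox1 was at 66.2 ± 7.25 CPM in the CEBPG knockouts and 15.1 ± 0.819 CPM in the controls. Myeloid markers, of cells that also express Hmox1 and ferritin, moved the same way (8 of 14 and 6 of 15 called), and their part was not tested.

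Cytosolic ribosomal protein genes were higher in the ATF3 knockouts by small amounts, 20 of 79 against 0, with a median of 0.30 and 77 of the 79 values above 0. Rpl13a was at 166 ± 11.6 against 121 ± 11.8 CPM (0.45, SE 0.08, adjusted p = 0.00258). The count was 10 without ATF3 replicate 5, 12 without ATF3 replicate 7 or CHOP replicate 1, 13 without CHOP replicate 5 and 0 with the rod covariate. In that last fit the differences of 3 of them were no smaller, at 0.50 for Rpl13a (adjusted p = 0.291), 0.84 for Rpl41 (adjusted p = 0.091) and 0.85 for Rps19 (adjusted p = 0.0735). Ribosomal protein genes have many processed copies in the genome, which can share reads. Of 77 mitochondrial ribosomal protein genes 2 passed and of 76 respiratory chain genes 2 passed (Cox4i1 and Uqcrfs1, near 0.34), a share below that of all genes. Cox4i1 passed with the rod covariate too (0.72, adjusted p = 0.026), and 74 of the 76 values were above 0 and their median was 0.14. The respiratory count was 7 without CHOP replicate 3 and 4 without CHOP replicate 4, and the mitochondrial ribosomal count was 0 without ATF3 replicate 5, 6 or 7 or CHOP replicate 1 or 5. Of 34 glycolysis and hypoxia genes Pfkp passed (-0.26, SE 0.06, adjusted p = 0.011), and 2 genes passed in that direction without CHOP replicate 1 or 4. Of the 34 genes 2.94% were called, below the 7.96% of all tested genes. Without CHOP replicate 5, 1 gene was higher in the ATF3 knockouts.

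Of 13 neuropeptide genes Cck, cholecystokinin, was at 15.3 ± 3.34 against 5.43 ± 2.16 CPM (1.499, SE 0.27, adjusted p = 0.00295) and was higher in the ATF3 knockouts together with Cartpt, while Tac2, which encodes neurokinin B, was higher in the CHOP knockouts (-1.73, SE 0.39, adjusted p = 0.0117). Without CHOP replicate 3, 2 genes of the list were higher in the CHOP knockouts, and without ATF3 replicate 5, 7 or 8 or CHOP replicate 1 only Cck was higher in the ATF3 knockouts. With the rod covariate 0 genes of the list passed, and Cck differed by 0.27 (adjusted p = 0.897) and Tac2 by -0.78 (adjusted p = 0.784). Among vessel markers, Pdgfrb, the receptor of pericytes, was at 23.04 ± 7.02 against 9.37 ± 1.46 CPM (1.30, SE 0.22, adjusted p = 0.00181). Acta2 and Kcnj8 were called in the same direction, and 1 of these 3 passed without ATF3 replicate 8 or 9 or CHOP replicate 1. Of 6 oligodendrocyte and astrocyte markers Mbp passed (0.55, SE 0.14, adjusted p = 0.0204), not without ATF3 replicate 7 (adjusted p = 0.051).

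**Figure D5:**
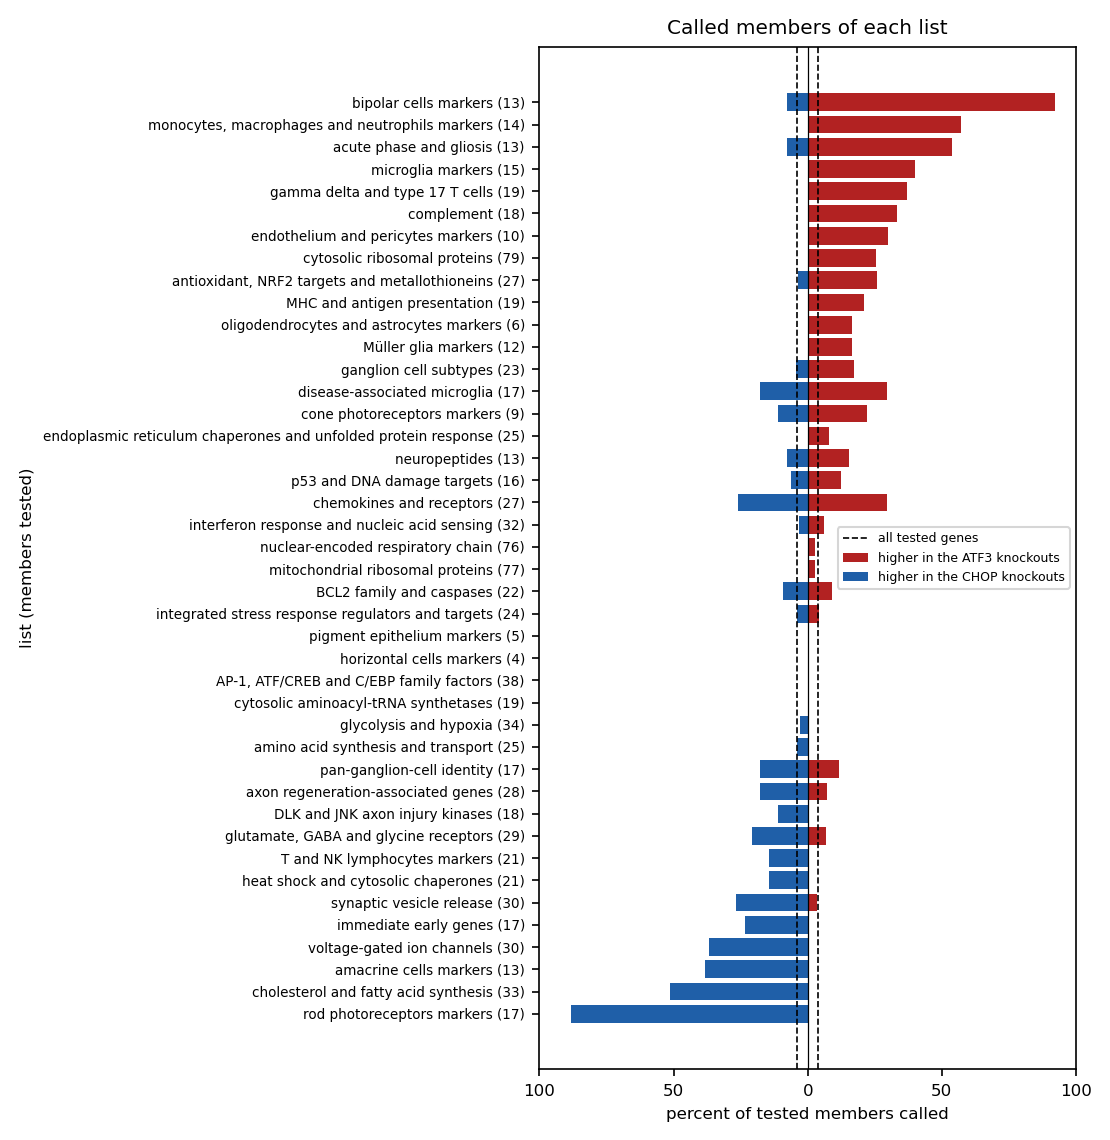
Percent of tested members of each list that were called higher in the ATF3 knockouts (red, to the right of 0) or in the CHOP knockouts (blue, to the left of 0), with the number tested in brackets; dashed lines are the shares of all tested genes, 4.0% and 3.95%. Bipolar and rod markers stand at the 2 ends, and the lists of stress response and family factors lie near or below the dashed lines.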

How the data were processed

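RNA of sorted cells was read as SMART-Seq v4 libraries after papain dissociation and flow sorting, per the labels' protocols. The authors deposited a table of raw counts per gene. Per the submitters' processing notes, the tools were STAR, HTSeq, Picard and edgeR, with mm10 as the build. Which annotation and strand setting the counting used is not stated in the labels. The deposited sample sheet also gave each library's batch, sex, age, its duplicates as a fraction of reads, and a score that the authors call a sequencing quality component. A further 40 columns of the sheet, whose headers appear shifted, were not used.

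Counts were tested with edgeR 4.0.16 (R 4.3.3, limma 3.58.1): genes kept by filterByExpr with a minimum count of 10 (15487 of 17164), TMM scaling, a robust quasi-likelihood fit of the 10 libraries, and Benjamini-Hochberg adjustment over all tested genes at 0.05. Fold changes are log2, ATF3 minus CHOP. The step was checked on simulated data with the same spread per gene in both groups, so the check does not cover their unequal spread. Levels in the CEBPG knockouts and controls use a scaling of 20 libraries, ATF4 knockouts included. CPM does not correct for gene length, so levels are compared within a gene. A floor of 3 reads stands for a group at 0 and covers counting error alone: with no molecular identifiers, reads are not separate molecules.

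The members and gene lists were chosen with earlier results of these data known. Genes named are the 4 targeted genes, the 12 largest called differences per direction (at least 5 CPM in the higher group, no overlap, no predicted or pseudogenes), up to 3 called members per list and direction by adjusted p, and the most abundant member of a list without a call. Other called members are named in counts, and those not called were named after their values were seen. Alternatives were other scalings, DESeq2 1.42.0, other filters, wider fits, thinning, 2 covariates, and each library left out. The limma fit with a weight per group was chosen after seeing the data. Promoters are those of RefSeq (GRCm38.p6), and 11549 tested genes had one. Results of a few genes are not reported here.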

Additional observations from a re-analysis of the deposited data

Results flagged for a closer look

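In groups of 5 libraries, a value was taken out for a closer look where its gap to the nearest other library was over 0.71 of the group's range. This held for 16 of 362 groups (4.42%), and chance gives about 1 in 20.

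In ATF3 replicate 8, Acta2 was at 33.0 CPM against 0 to 6.25 CPM in the other 4 libraries, Cd209a at 18.9 CPM against 1.20 to 6.02 CPM, and Fcrls at 149 CPM against 175 to 180.2 CPM. Its vesicle release genes took 1.77% of reads, against 1.73% in the others. In ATF3 replicate 5, H2-Aa was at 93.3 CPM against 131 to 139 CPM, H2-Ab1 at 195 CPM against 290.0 to 324 CPM, Slc17a6 at 25.2 CPM against 18.3 to 19.3 CPM, and Uqcrfs1 at 165 CPM against 136 to 144 CPM. The same library held 0.0468% of reads in T and NK cell markers (others 0.0402% to 0.0420%), 0.236% in tRNA synthetases (0.251% to 0.253%) and 1.38% in respiratory chain genes (1.25% to 1.28%).

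In CHOP replicate 3, C5ar1 was at 34.0 CPM against 21.1 to 23.3 CPM and Egr1 at 1219 CPM against 995 to 1051 CPM. Emd was at 36.8 CPM in CHOP replicate 4 against 15.0 to 21.1 CPM, and axon regeneration genes took 0.242% of its reads against 0.252% to 0.254%. Fcrls was at 24.3 CPM in CHOP replicate 2 against 30.6 to 31.9 CPM.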

How the results depend on the processing

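No paired analysis was possible because the ATF3 replicates are numbered 5 to 9 and the CHOP replicates 1 to 5, so that they share only the number 5. With 620 genes higher in the ATF3 and 612 in the CHOP knockouts, other settings gave 985 (higher in the ATF3 knockouts, DESeq2), 253 and 127 (fit of 20 libraries), 330 and 199 (fit of the 14 libraries of batch 3), 397 and 364 (quality component as covariate) and 61 and 32 (rod share as covariate). The wider fits pool the spread of more groups. Of the 1232 calls, the rod covariate kept 75, and 47 had the opposite sign in it. Leaving out a library gave 474 to 784 genes higher in the ATF3 and 367 to 606 higher in the CHOP knockouts. Of 132 called named genes, 99 passed with any library left out and 19 under each of the 10 other settings. Reversed signs with the rod covariate were Bcl2l2 at 0.083, Ddit3 at 0.17, Fos at 0.39, Nars at 0.048 and Prkca at 0.079. Leaving out a library gave -0.27 (without CHOP replicate 4) to 0.023 (without CHOP replicate 3) for Fos and -0.076 (without CHOP replicate 4) to 0.26 (without CHOP replicate 3) for Atf3. Atf3 was also below 0 with the quality component (-0.040) and without ATF3 replicate 8 or CHOP replicate 5 (-0.04 and -0.06). The cause was not tested. Of 17164 genes, 1677 were too low to test.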
